A study of Mus musculus with 4 samples.

Results

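The cells described here were Foxp3-expressing CD4 T cells of mouse lung that carried transcripts of the chemokine receptor gene Ccr8 and none of 2 other receptor genes, Il1rl1, which encodes the IL-33 receptor ST2, and Cxcr3. They were chosen by measured counts: at least 1 unique molecular identifier (UMI, a count of 1 captured transcript) of Foxp3 and of Ccr8, and 0 of Il1rl1 and Cxcr3. The rule found 335 cells of 14217 kept, of which 319 came from tumor lung and 16 from normal lung. In GRCm38.p6, Ccr8 (ENSMUSG00000042262) lies at chr9:120092133-120094906, Il1rl1 (ENSMUSG00000026069) at chr1:40404864-40465418 and Cxcr3 (ENSMUSG00000050232) at chrX:101731535-101734147. The chosen cells are called Ccr8 Tregs below. Cells of the same library with a Foxp3 UMI and none of the 3 receptors served as the reference, with 231 cells in tumor lung and 169 in normal lung.

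Live CD4 T cells had been enriched and sorted from perfused lungs of C57BL/6 mice, after digestion with Collagenase IV and DNase. The tumor group had received 500000 TC1 cells, a transplantable mouse tumor line, into the tail vein 3 weeks before collection, and the normal group consisted of age-matched mice without tumor cells. Each group gave 1 gene expression library from 5' transcript ends and 1 T cell receptor library of the same cells. The number of mice behind a suspension is not in the labels, so the libraries of each group count as 1 sample. Every difference below therefore lacked a replicate check and no test was possible. The 95% intervals given after values cover counting error only, and they treat UMIs of 1 cell and cells of 1 clone as independent, which they are not.

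Regulatory T cells (Tregs) restrain other immune cells and depend on the transcription factor Foxp3. Those that settle in inflamed tissue or tumors lose the receptors that lead naive cells to lymph nodes and gain receptors of activation, among them CCR8. CCR8 binds the chemokines CCL1 and, in mice, CCL8, and it marks Tregs of many tumors more than Tregs of blood. ST2 marks tissue Tregs that respond to IL-33, and CXCR3 marks Tregs that follow interferon-induced chemokines into sites of type 1 inflammation.

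T cell receptors show which of these cells descend from a common ancestor or carry alike binding loops, so some recurring loops are printed first. A Ccr8 Treg loop was called recurrent when the same V gene and the same translated CDR3, the loop that contacts peptide, was encoded by at least 2 different nucleotide sequences in the tumor library. Many of these forms differ by 1 base and some alpha loops had only 1 set of partner beta chains, and the part of sequencing error in such forms was not tested. The CDR3 coding sequences below run 5' to 3' as the authors deposited them, and capitals mark the bases that differ within a loop. The loops joined TRBV3 (Trbv3, chr6:41048394-41048824, GRCm38.p6) to TRBJ2-1, TRBV19 (Trbv19, chr6:41178589-41179048) to TRBJ2-7 and, for the alpha chain, TRAV13D-2 (Trav13d-2, chr14:52942764-52943289) to TRAJ27.
TRBV3 loop 1, form a: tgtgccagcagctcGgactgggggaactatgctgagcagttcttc
TRBV3 loop 1, form b: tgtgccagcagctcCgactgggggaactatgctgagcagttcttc
TRBV3 loop 1, form c: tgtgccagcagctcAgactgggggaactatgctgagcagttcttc
TRBV3 loop 2, form a: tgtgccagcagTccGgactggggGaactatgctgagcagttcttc
TRBV3 loop 2, form b: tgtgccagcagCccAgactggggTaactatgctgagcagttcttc
TRBV19 loop, form a: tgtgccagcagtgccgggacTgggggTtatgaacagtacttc
TRBV19 loop, form b: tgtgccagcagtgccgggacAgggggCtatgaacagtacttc
TRAV13D-2 loop, form a: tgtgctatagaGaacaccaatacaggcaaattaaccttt
TRAV13D-2 loop, form b: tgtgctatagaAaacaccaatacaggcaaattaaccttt

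TRBV3 loop 1 was carried by 16 tumor-library cells with 7 different sets of partner alpha chains. Of these, 5 were Ccr8 Tregs, 10 were Tregs with Cxcr3 and 1 had no Foxp3 UMI. TRBV3 loop 2 occurred in 8 cells, 3 of them Ccr8 Tregs. The TRBV19 loop occurred in 5 cells, 3 of them Ccr8 Tregs, 1 with Il1rl1 and 1 in the reference. The TRAV13D-2 loop occurred in 15 cells, 7 of them Ccr8 Tregs, with 6 different partner sets. None of these 4 loops was found in the normal library.

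The tumor library held 7135 kept cells and the normal library 7082, with median depths of 4173 and 3906 UMIs. Among cells kept, 74 barcodes occurred in both libraries. They included 6 of the Ccr8 Tregs of the tumor library, and no barcode was a Ccr8 Treg in both. T cell identity was clear, with a Cd3e UMI in 98.1% of the 319 cells. A Cd4 UMI was seen in 56.4%, although the cells had been sorted on CD4 protein. The Treg genes Ctla4, Ikzf2 (Helios) and Il2ra (CD25) were detected in 95.3%, 86.5% and 71.2% of Ccr8 Tregs and in 74.0%, 53.2% and 50.6% of the reference. The preset markers of the cells, Tnfrsf9 and Pdcd1, had a UMI in 86.8% and 72.7% of them, against 45.0% and 28.1% of the reference.

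Transcripts of other cells were low and unequal between the classes. Ms4a1, Lyz2, Csf1r, Col1a1 and Krt8 were at 0 UMIs in the tumor-library Ccr8 Tregs. The B cell list had 7 of 10 genes detected and summed to 751 CPM (UMIs scaled to a common total per class) in Ccr8 Tregs against 420 CPM with 6 detected in the reference. Ighm, Cd74 and Igkc made up most of it, at 342, 288 and 97.9 CPM against 245, 123 and 36.3 CPM. The epithelial list summed to 49.3 against 24.9 CPM, mostly Epcam, and the myeloid list to 4.60 against 6.22 CPM. The part of such RNA in the results below was not tested.

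In tumor lung, 319 of the 1147 cells with a Foxp3 UMI were Ccr8 Tregs (27.8%, 25.2 to 30.5). In normal lung, 16 of 206 were (7.77%, 4.50 to 12.3). Of the other tumor-library Foxp3 cells, 433 carried Cxcr3 without Il1rl1, 107 carried Il1rl1 without Cxcr3, 57 carried both and 231 were the reference. The members just inside the Ccr8 threshold were the 78 tumor-library cells with exactly 1 Ccr8 UMI, and just outside it lay the 231 reference cells with 0. A further 104 Ccr8 Tregs had 2 to 3 Ccr8 UMIs and 137 had 4 or more, with a maximum of 26. In the normal library 8 cells had 1 UMI, 8 had 2 to 3, and the maximum was 3.

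Some Ccr8 UMIs occurred in cells that should lack the receptor. Among naive-type cells, with no Foxp3 UMI but both Ccr7 and Lef1 (a pair chosen after seeing the data), a Ccr8 UMI was seen in 9.20% of 4346 tumor-library cells (8.36 to 10.1, median depth 4222 UMIs). The corresponding share was 3.80% of 5706 normal-library cells (3.32 to 4.33, median depth 3975.5). Foxp3 cells stood at 66.2% and 12.6%, at median depths of 4725 and 3995.5 UMIs. At 4 or more Ccr8 UMIs the shares were 1.47% of naive-type cells against 32.4% of Foxp3 cells in the tumor library, and 0.175% against 0.485% in the normal library, where that was 1 Foxp3 cell.

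Absence of Il1rl1 and Cxcr3 UMIs went with depth. When the 759 tumor-library Tregs with a Ccr8 UMI were ordered by depth and cut into 4 equal bins, 64.6% of the shallowest bin lacked both other receptors (57.3 to 71.4), followed by 44.2%, 34.7% and 24.7% (18.8 to 31.5) in the deepest. The share with a Cxcr3 UMI ran the other way, from 27.0% to 63.2%. Ccr8 Tregs had a median depth of 4269 UMIs, Cxcr3 Tregs 5363, ST2 Tregs 4946 and the reference 4011. With the rule applied after thinning each cell to 2417 UMIs, which left out 68 and 13 Foxp3 cells below that depth, the rule took 334 of the 889 tumor-library cells that still had a Foxp3 UMI (37.6%) and 8 of 145 normal-library cells. The part of detection in these shares was not tested.

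**Figure D1:**
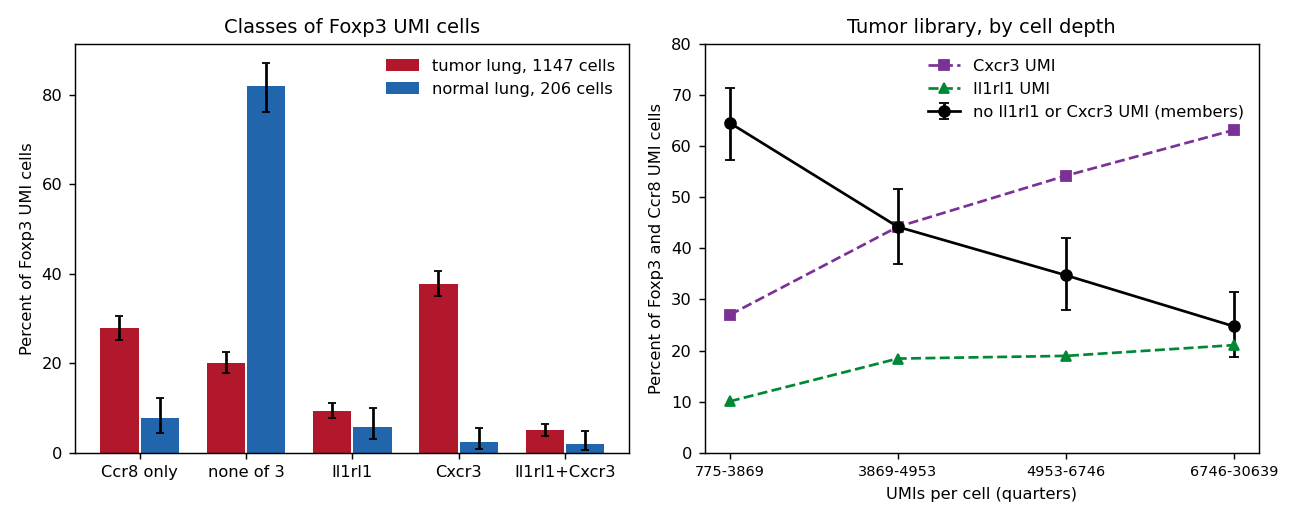
Left, share of Foxp3 UMI cells (percent) in each receptor class for the tumor and normal libraries, with 95% Clopper-Pearson bars; Ccr8 Tregs are "Ccr8 only" and the reference is "none of 3". Right, tumor-library Tregs with a Ccr8 UMI in 4 bins of depth (UMIs per cell): the share without Il1rl1 and Cxcr3 was 64.6% in the shallowest and 24.7% in the deepest bin, while the share with Cxcr3 was 27.0% and 63.2%.

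Beside the reference in the tumor library, Ccr8 Tregs had more UMIs of the inhibitory receptor list (a summed 4021 against 2290 CPM) and of TNF receptors (5492 against 2495 CPM). Ctla4 gave 2484 of the 6123 UMIs of the inhibitory receptor list in Ccr8 Tregs and 1169 of 2208 in the reference. The metallothionein and tissue-repair list was also higher (3173 against 1325 CPM). Its 4831 UMIs in Ccr8 Tregs included 1029 of Ctla2a, 970 of Ikzf2 and 805 of Plac8. Genes for lymph node homing and quiescence were lower (2431 against 5281 CPM). UMIs were summed over the cells of each class, 1522726 for Ccr8 Tregs and 964377 for the reference, and compared as CPM. Of 8029 genes with at least 20 UMIs in both classes together, 1495 (18.6%) were at least 1.5-fold higher in Ccr8 Tregs and 553 (6.89%) at least 1.5-fold lower, with a median log2 ratio of 0.15. Without the cells whose barcodes occurred in both libraries, the counts were 1483 and 546. The higher genes were 73.0% of these calls, or 59.6% when the classes were scaled by the median of ratios, which lowered the median of all genes to 0.05. Because Ccr8 UMIs chose the cells, these values describe them and support nothing further.

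The inhibitory receptor Pdcd1 (PD-1) stood at 702 CPM in Ccr8 Tregs and 193 CPM in the reference of the tumor library, a ratio of 3.64 (3.11 to 4.28). Its ligand gene Pdcd1lg2 (PD-L2) was 4.68-fold higher (2.85 to 8.14), Havcr2 (TIM-3) 7.39-fold on 70 against 6 UMIs (3.23 to 20.8), Tigit 2.32-fold (2.09 to 2.58) and Lag3 1.63-fold (1.21 to 2.23). Of 13 genes tested in the inhibitory receptor list, 7 were at least 1.5-fold higher and 1 lower, Cd96. The list also holds genes that do not encode receptors, among them Pdcd1lg2, Cd274 and Entpd1. Against the subset of reference cells with a Tnfrsf9 UMI, Lag3 lay on the other side, at a log2 ratio of -0.44.

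Among costimulatory TNF receptors, Tnfrsf9 (4-1BB) reached 1438 CPM against 446 CPM, a ratio of 3.23 (2.91 to 3.59). Tnfrsf4 (OX40) was 2.54-fold higher (2.34 to 2.75) and Tnfrsf18 (GITR) 2.0-fold (1.83 to 2.19). In that list 5 of 10 genes tested were at least 1.5-fold higher and none lower. Of 14 core Treg identity genes 9 were higher and Gpr83 lower, with a median log2 ratio of 0.69. Ikzf2 was 1.72-fold higher (1.52 to 1.94) and Il2ra 1.54-fold (1.35 to 1.77). Ctla4 at 1.35-fold (1.25 to 1.44) and Icos at 1.45-fold (1.30 to 1.61) did not reach 1.5-fold.

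Genes of suppression and tissue repair were among those with the largest ratios. Penk, which encodes the precursor of enkephalin peptides, was at 221 CPM in Ccr8 Tregs and 36.3 CPM in the reference (6.08-fold, 4.29 to 8.88). Its UMIs came from 59 of the 319 cells (18.5%). Tff1, a trefoil peptide gene of mucosal surfaces, was at 112 and 16.6 CPM (6.77-fold, 4.05 to 12.1). Il1r2, the decoy receptor that binds IL-1, was at 95.2 and 17.6 CPM (5.40-fold, 3.26 to 9.53). The prothrombinase-like suppressor gene Fgl2 was at 326 and 93.3 CPM (3.49-fold, 2.78 to 4.42), Ebi3, a subunit of IL-35 and IL-27, 3.34-fold higher (2.29 to 5.00), Gzmb 2.53-fold (2.08 to 3.1) and the growth factor gene Areg 2.17-fold (1.84 to 2.58). Of 18 suppressive mediators tested 13 were higher and none lower (median log2 1.11), and of 12 metallothionein and tissue-repair genes 10 were higher and none lower (median 1.29). Il10, at 55 against 31 UMIs, had a ratio of 1.12 (0.711 to 1.81), which spans 1.

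The remaining genes on the higher side by the naming rule were Plac8 at 5.37-fold, Nkg7 at 4.40-fold, Tmem158, Bcl2a1d, Bmyc, Ttc39c, Id2 and Impa2. Nkg7 UMIs came from 32 of the 319 Ccr8 Tregs and 13 of the 231 reference cells. Id2, an inhibitor of basic helix-loop-helix factors found in effector and tissue T cells, was at 664 and 196 CPM (3.39-fold, 2.90 to 3.98). Of 19 effector Treg transcription factors 13 were higher, among them Rora (2.80-fold, 2.35 to 3.34), Bhlhe40 (2.40-fold, 2.16 to 2.67), Maf (1.83-fold, 1.43 to 2.37) and Gata3 (1.78-fold, 1.48 to 2.15), and Myb was lower. Batf at 1.14-fold (0.948 to 1.38) and Irf4 at a ratio of 0.756 (0.475 to 1.21) had intervals that span 1. All 7 tested genes of the Th1 and cytotoxic list were higher, with Cxcr6 at 3.88-fold on 49 against 8 UMIs and Ccl5 at 2.47-fold. When the reference was widened to all Foxp3 cells without Ccr8, whatever their Cxcr3 and Il1rl1, the median log2 ratio of that list turned to -0.17, with Gzmb at -0.45 and Tbx21 at -0.17.

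The genes on the lower side belonged largely to naive cells. Igfbp4 stood at 50.6 CPM against 431 CPM in the reference (ratio 0.117, 0.0907 to 0.150). S1pr1, the receptor that lets T cells leave tissue and lymph nodes, was at 62.4 against 374 CPM (0.167, 0.132 to 0.209), and Klf2, the transcription factor that sustains S1pr1, at 178 against 757 CPM (0.235, 0.204 to 0.271). Tcf7 and Lef1, factors of quiescent T cells, had ratios of 0.265 and 0.356, the survival gene Bcl2 0.213 and the chromatin organizer Satb1 0.325. The others on this side were Ly6c1, Tubb2a, Evl, Trib2, Nsg2, Klf3, Gtf2i and Ifngr2. In the list of naive and homing genes, 14 of 16 were at least 1.5-fold lower and none higher, with a median log2 ratio of -1.71. Ccr7 was at a ratio of 0.615 (0.557 to 0.680), and Il7r at 1.05 did not follow.

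**Figure D2:**
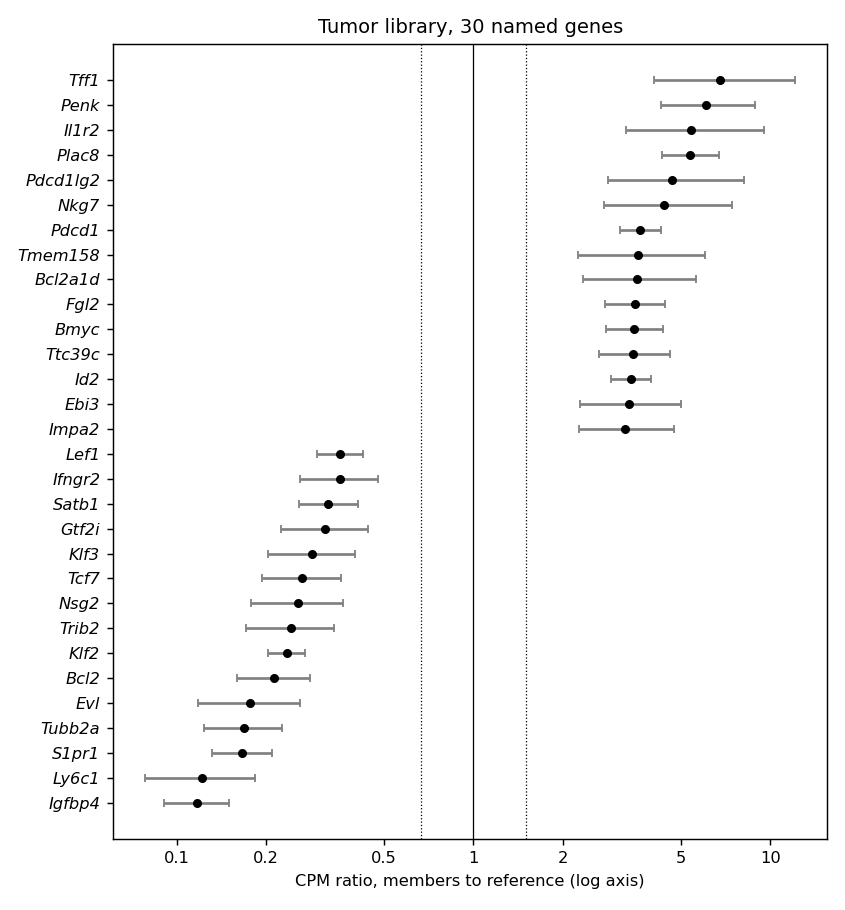
Ratio of CPM in Ccr8 Tregs (members) to the reference in the tumor library for the 30 genes named by rank, log axis, with exact 95% counting intervals; dotted lines mark 1.5-fold in each direction. The 15 higher genes run from Impa2 at 3.24 to Tff1 at 6.77, and the 15 lower from Igfbp4 at 0.117 to Lef1 at 0.356.

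Counts of signalling genes are read against the 18.6% of all genes that were higher and the 6.89% that were lower. Of 17 NF-kB genes 1 was higher and none lower (median log2 0.23), of 14 AP-1 and stress genes 1 was higher and 1 lower (median -0.02), and of 21 interferon response genes 3 were higher and none lower (median 0.32). Of 17 T cell receptor response genes 6 were higher and 1 lower (median 0.50), and the list summed to 8767 against 5829 CPM. This list shares Tnfrsf9 and Tnfrsf4 with the TNF receptor list above. They gave 2190 and 2924 of its 13349 UMIs in Ccr8 Tregs, and 430 and 730 of 5621 in the reference. The activation marker Cd83 was at 2.75-fold (2.28 to 3.33). Of 17 glycolysis and hypoxia genes 5 were higher and none lower (median 0.43). Proliferating cells, with a Mki67 or Top2a UMI, were 44 of the 319 Ccr8 Tregs (13.8%) and 24 of the 231 reference cells (10.4%), against 19.2% of Cxcr3 Tregs and 23.4% of ST2 Tregs at greater depth.

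ST2 and Cxcr3 Tregs were taken whatever their Ccr8. A Ccr8 UMI was present in 82 of the 107 ST2 Tregs and in 310 of the 433 Cxcr3 Tregs. Set beside ST2 Tregs, Ccr8 Tregs differed in fewer genes than beside the reference, which has no Ccr8 UMI. Of 7708 genes tested, 964 (12.5%) were at least 1.5-fold higher in Ccr8 Tregs and 453 (5.88%) lower, with a median log2 ratio of 0.05. Nkg7, a cytotoxic granule gene, was 7.65-fold higher on 139 against 7 UMIs (3.61 to 19.4), from 32 of 319 and 3 of 107 cells. Mx1 was 3.20-fold higher, Lag3 2.52-fold (1.63 to 4.05), Ifit3 2.42-fold (1.72 to 3.49), Ifit1 2.37-fold and Ccl5 2.21-fold (1.82 to 2.69). Spty2d1 and Keap1 were also named on that side. Interferon response genes were higher in 5 of 21 and lower in none. The lower genes were led by Dgat2 (0.486, 0.381 to 0.622), the lipid enzyme of triglyceride synthesis, S100a4 (0.520), the killer lectin receptor gene Klrg1 at 267 against 489 CPM (0.545, 0.467 to 0.636) and Areg at 410 against 662 CPM (0.619, 0.545 to 0.705), followed by Fosb, S100a6, Nfkbiz and H2afz. Areg and Klrg1 thus lay between the reference and ST2 Tregs.

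Beside Cxcr3 Tregs, 693 of 8989 genes tested (7.71%) were at least 1.5-fold higher in Ccr8 Tregs and 468 (5.21%) lower, with a median log2 ratio of 0.04. Penk was at 221 against 94.7 CPM (2.33-fold, 1.97 to 2.75), AA467197 2.09-fold higher, Cd83 1.91-fold (1.70 to 2.15) and Dusp10, a MAP kinase phosphatase gene, 1.75-fold, beside Nop58, Cbarp, Dgat2 and Setdb2. Dgat2, at 101 CPM, was thus higher than in Cxcr3 Tregs (54.6 CPM) and lower than in ST2 Tregs (208 CPM). On the lower side stood the mitotic gene Ube2c (0.369), the chemokine receptor gene Ccr2 (0.488, 0.409 to 0.581) and Gzmb at 336 against 677 CPM (0.496, 0.449 to 0.548), with Ifit1bl1, Mrpl41, C1qtnf6 and Pycard. In the Th1 and cytotoxic list 7 of 11 genes tested were lower and none higher, and in the S100, annexin and galectin list 8 of 17 were lower and none higher.

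**Figure D3:**
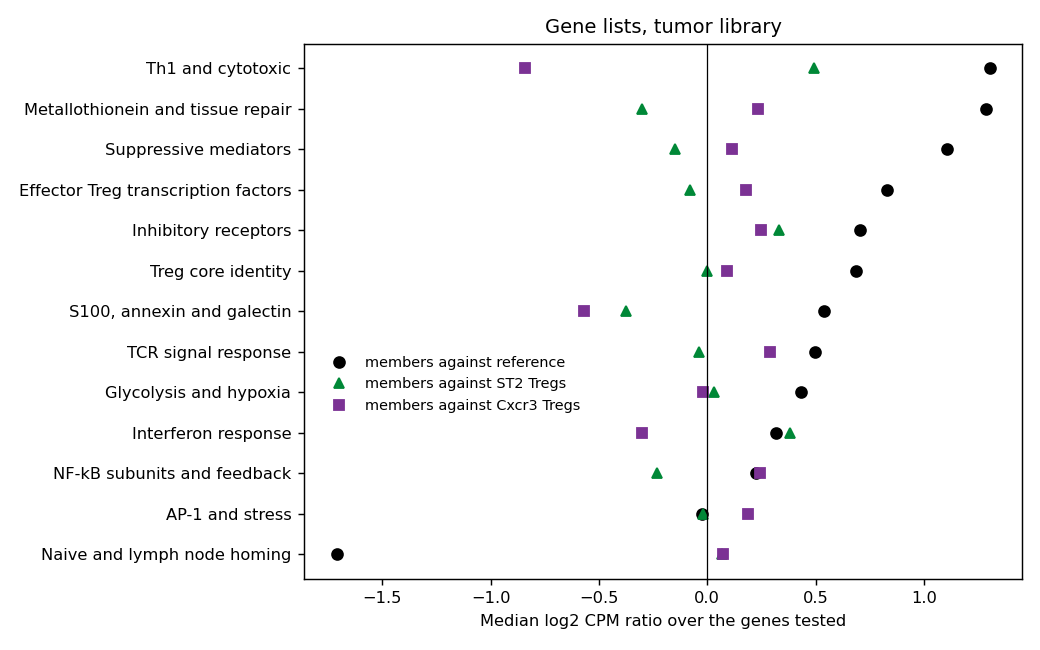
Median log2 CPM ratio over the tested genes of 13 gene lists for Ccr8 Tregs (members) against the reference, ST2 Tregs and Cxcr3 Tregs of the tumor library. Against the reference the naive list lies at -1.71 and the suppressive list at 1.11, while against the other Treg classes both lists lie near 0; the Th1 and cytotoxic list lies at 1.30 against the reference and at -0.84 against Cxcr3 Tregs.

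The split by Ccr8 was also made within the other Treg classes, a choice made after the values were seen. Cxcr3 Tregs with a Ccr8 UMI had 1277 CPM of Tnfrsf9 and those without had 635, and ST2 Tregs had 1750 and 990. Pdcd1 stood at 635 against 368 CPM in Cxcr3 Tregs and at 696 against 205 in ST2 Tregs. Il1r2 was at 90.0 against 8.15 CPM in Cxcr3 Tregs, the latter on 6 UMIs, next to 95.2 in Ccr8 Tregs and 17.6 in the reference. In each class the cells with Ccr8 were the higher ones for Tnfrsf9 and Pdcd1. Klf2 did not show so wide a gap there: 149 CPM with Ccr8 and 247 without in Cxcr3 Tregs, against 178 and 757 in Ccr8 Tregs and the reference.

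**Figure D4:**
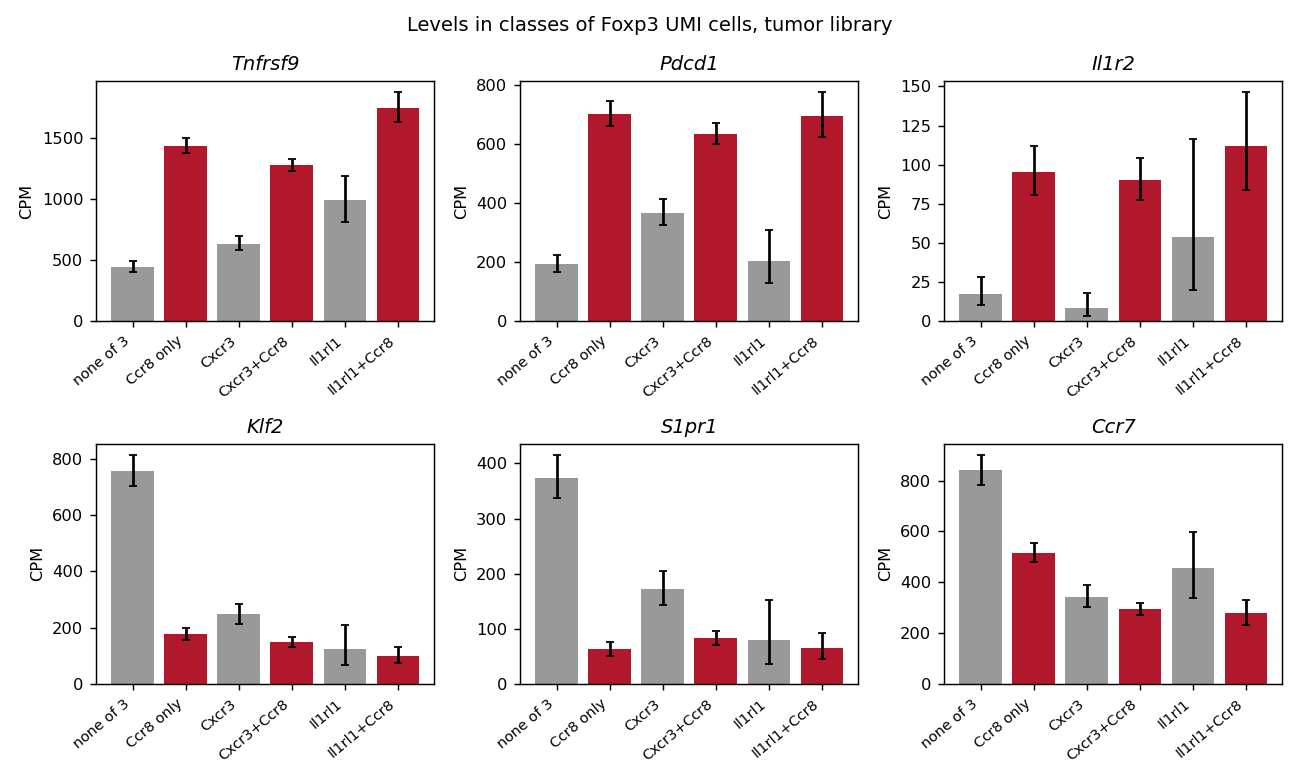
CPM of 6 genes in 6 classes of tumor-library Foxp3 cells, red with and grey without a Ccr8 UMI, with exact 95% Poisson bars; "Ccr8 only" are the Ccr8 Tregs and "none of 3" the reference. Tnfrsf9 and Pdcd1 stand higher in each red bar than in the grey bar to its left, and Klf2, S1pr1 and Ccr7 are highest in the reference.

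The 319 cells were not uniform. Tnfrsf9 was at 996 CPM in cells with 1 Ccr8 UMI, 1410 with 2 to 3 and 1665 with 4 or more, where intervals of neighbouring bins did not overlap (895 to 1106, 1299 to 1527, 1573 to 1760). Pdcd1 was at 489, 752 and 775 CPM, the upper 2 with overlapping intervals, and Klf2 at 314, 164 and 121 CPM. Median depth was 3896.5, 3913.5 and 4917 UMIs in these bins, so cells with 4 or more were also deeper. Gzmb ran the other way, with 467, 428 and 222 CPM. The cells with 1 Ccr8 UMI thus lay between the rest and the reference for Tnfrsf9, Pdcd1 and Klf2, but not for Gzmb, at 133 CPM in the reference.

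Among cells thinned to equal depth, the variance of UMIs relative to their mean had a median of 1.07 over 1863 genes. It was largest for Gm42418, at 108.9 against 66.7 in the reference. The chemokine gene Cxcl10 had 13.8, Mt1 11.1, Ccr7 7.84 and Gzmb 7.17, with Ifi27l2a, Lars2 and Vim also above Ccr7. The reference had larger values for Cxcl10 (23.6) and Gzmb (8.32) and smaller ones for Mt1 and Ccr7. The spread of Cxcl10 and Gzmb was thus not particular to Ccr8 Tregs. Among Ccr8 Tregs, 94 cells (29.5%) had a Ccr7 UMI and 225 had none, at median depths of 5279.5 and 4017 UMIs. In this division, made after the spread was seen, Lef1 was 3.57-fold (2.62 to 4.90), Klf2 2.44-fold (1.90 to 3.13) and Penk 2.21-fold higher in the cells with Ccr7. Fgl2 (2.82-fold, 2.22 to 3.61) and Ifit3 (3.03-fold, 2.15 to 4.39) were higher in those without. Penk counts in the cells with Ccr7 came from 18 cells. Of the Ccr8 Tregs, 46 had 5 or more Ccr7 UMIs, at a median depth of 5394 UMIs. In the reference 129 of 231 cells (55.8%) had a Ccr7 UMI. The part of free RNA, or of 2 cells under 1 barcode, in the Ccr7 UMIs of Ccr8 Tregs was not tested.

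A clone was defined by identical nucleotide CDR3s and V genes of both chains, and a clone of at least 2 kept cells was called expanded. A paired receptor was available for 230 of the 319 Ccr8 Tregs, of which 80 belonged to expanded clones (34.8%, 28.6 to 41.3). The share was 6.98% of 172 reference cells (3.66 to 11.9), 37.1% of 364 Cxcr3 Tregs (32.1 to 42.3), 33.7% of 83 ST2 Tregs (23.7 to 44.9) and 1.98% of 4809 cells without Foxp3. Within Ccr8 Tregs it was 22.6% at 1 Ccr8 UMI, 36.5% at 2 to 3 and 39.8% at 4 or more, with overlapping intervals (12.3 to 36.2 and 30.3 to 49.9 at the ends). It was 40.0% without and 21.5% with a Ccr7 UMI. None of the 14 paired Ccr8 Tregs of the normal library was in an expanded clone, which allows a share of up to 23.2% (exact 95% interval).

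Some clones of Ccr8 Tregs also held cells of other receptor classes. The 230 cells formed 208 clones, of which 58 were expanded. Of these 58, 49 (84.5%, 72.6 to 92.7) also held Tregs with Cxcr3, Il1rl1 or both, and 4 (6.90%, 1.91 to 16.7) held a reference cell. A cell without Foxp3 UMIs was in 10, and 6 held Ccr8 Tregs alone. Only 18 of the 58 held 2 or more Ccr8 Tregs. The others were expanded only by holding a cell outside the class, so the 84.5% follows in part from the definition. Paired Cxcr3 Tregs (364) were also more numerous than paired reference cells (172). Seen from the other classes, 14.3% of paired Cxcr3 Tregs (10.9 to 18.3), 15.7% of ST2 Tregs (8.61 to 25.3) and 2.33% of the reference (0.637 to 5.85) shared a clone with a Ccr8 Treg. No clone held more than 3 Ccr8 Tregs. No clone of the tumor-library Ccr8 Tregs was found in the normal library by both chains, and 1 was by the beta chain alone.

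Ccr8 Tregs of expanded clones differed from the 150 of single-cell clones. AA467197 was 3.40-fold higher (2.55 to 4.55), Mt1 2.61-fold (2.15 to 3.18), Gzmb 2.46-fold (1.99 to 3.03) and Fgl2 1.95-fold (1.58 to 2.40). Lef1, Klf2 and Ccr7 had ratios of 0.320 (0.180 to 0.536), 0.332 (0.208 to 0.508) and 0.441 (0.346 to 0.558). Median depths were 4235.5 and 4431.5 UMIs.

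TRBV19 was used by 58 of 247 Ccr8 Tregs with a beta chain (23.5%, 18.3 to 29.3), and by 24.4% of their distinct beta chains. It was 12.2% in the reference (8.01 to 17.7), 20.9% in Cxcr3 Tregs, 24.4% in ST2 Tregs and 8.01% in cells without Foxp3. The joint call TRBV12-2+TRBV13-2 was at 14.6% against 7.14% in the reference, with overlapping intervals (10.4 to 19.6 and 3.96 to 11.7). TRBV3, the segment of both TRBV3 loops shown, was at 12.1% against 13.3% and did not stand apart. In the alpha chain TRAV13D-2 made up 9.23% of 325 chains (6.31 to 12.9) against 3.41% in the reference (1.38 to 6.91), falling to 5.82% of distinct chains. TRAV6-6 was at 8.62% against 2.44%. Cxcr3 Tregs had 11.5% for the joint beta call, 7.10% for TRAV13D-2 and 6.45% for TRAV6-6. ST2 Tregs had 9.30% for the joint call and 4.67% for TRAV13D-2, on 8 and 5 cells.

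**Figure D5:**
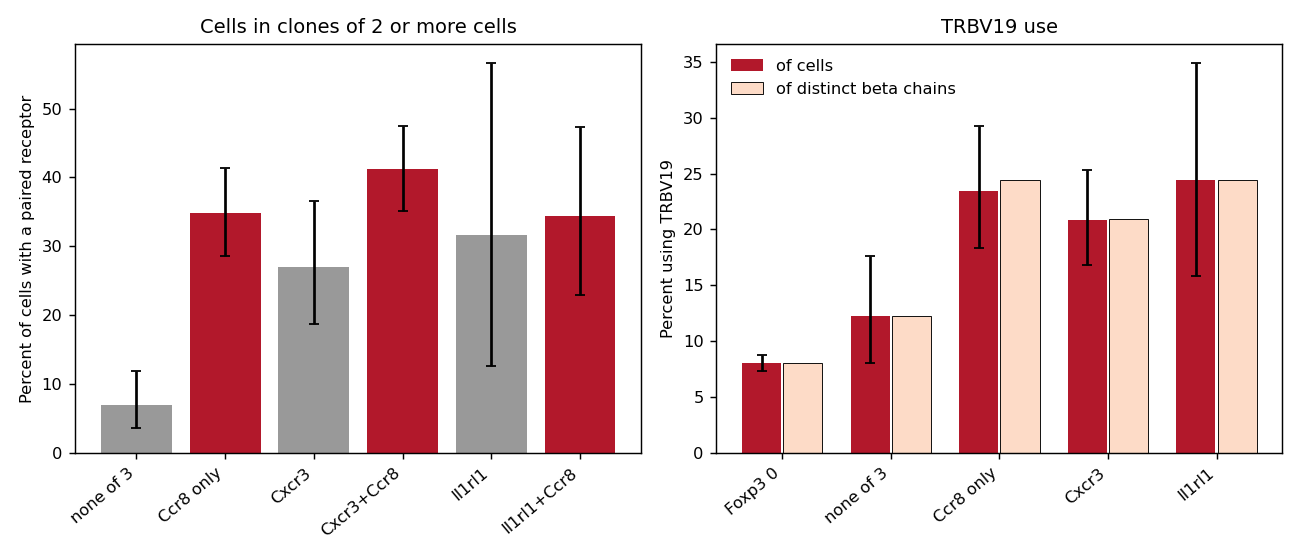
Left, percent of paired tumor-library cells in clones of 2 or more cells, red with and grey without a Ccr8 UMI. Right, percent of cells and of distinct beta chains using TRBV19, with 95% Clopper-Pearson bars for cells; Ccr8 Tregs ("Ccr8 only") stand at 34.8% and 23.5% against 6.98% and 12.2% in the reference ("none of 3").

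Recurrent beta loops, of the kind printed above, were carried by 30 of 247 Ccr8 Tregs (12.1%, 8.35 to 16.9), 4 of 196 reference cells (2.04%, 0.559 to 5.14), 15.8% of Cxcr3 Tregs, 17.4% of ST2 Tregs and 2.42% of cells without Foxp3. These shares count each cell of a clone. By distinct beta loops, 16 of 209 were recurrent in Ccr8 Tregs, 4 of 196 in the reference, 28 of 293 in Cxcr3 Tregs and 11 of 79 in ST2 Tregs. Of the 16 loops of Ccr8 Tregs, 14 also occurred in Tregs with Cxcr3 or Il1rl1, 1 in a reference cell and 1 in the normal library. Recurrent alpha loops were in 14.5% of Ccr8 Treg alpha chains against 6.34% in the reference, with intervals that lie close to each other (10.8 to 18.8 and 3.42 to 10.6). They were in 13.3% of those of Cxcr3 Tregs, 8.41% of ST2 Tregs and 4.58% of cells without Foxp3. Of the 30 alpha loops of Ccr8 Tregs, 23 also occurred in Tregs with Cxcr3 or Il1rl1, 5 in reference cells and 6 in the normal library.

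The 16 Ccr8 Tregs of the normal library were compared with their own reference. At 77991 summed UMIs the comparison was shallow: of 4433 genes tested, 962 (21.7%) were at least 1.5-fold higher and 794 (17.9%) lower. Pdcd1 was at 218 against 45.7 CPM (4.76-fold on 17 against 32 UMIs, 2.48 to 8.84), Tnfrsf9 at 231 against 85.8 CPM (2.69-fold, 1.49 to 4.62), Tigit 3.79-fold higher (2.09 to 6.61) and Ctla4 1.83-fold (1.39 to 2.37). Il2ra, on 9 against 126 UMIs, was at a ratio of 0.641 (0.286 to 1.26), which spans 1, where it had been higher in the tumor library. Of 13 core Treg genes 7 were higher and 1 lower, and of 9 TNF receptors 3 and 2 (median log2 0.11). In the inhibitory receptor list 4 of 7 genes tested were higher and 1 lower (median 0.87). Of 15 S100, annexin and galectin genes tested, which serve motility and effector function, 13 were higher and none lower (median log2 1.34), led by Lgals3 on 11 against 15 UMIs, against 7 higher of 16 in the tumor library. Klf2, at 1628 against 1557 CPM (ratio 1.05, 0.863 to 1.26), and S1pr1, at 539 against 498 CPM, did not share the difference seen in the tumor library. In the naive and homing list 6 of 16 genes were lower and none higher. Of the 15 genes named as higher in the tumor library 3 could be tested here, 1 higher and 2 lower.

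Between the libraries, Ccr8 Tregs of tumor lung and of normal lung differed widely, but 16 cells stand behind the second value. Of 6274 genes tested, tumor-lung cells had at least 1.5-fold more of 1824 (29.1%) and at least 1.5-fold less of 1278 (20.4%). The 8 named genes were Ly6a (2375 against 1 UMI), Ctla2a (1029 against 1), Id2 (1011 against 2), Hilpda, Npm3, Lgals3bp, Mapkapk3 and Rapsn, with Id2 at 664 against 25.6 CPM (25.9-fold, 7.15 to 214). In the reverse direction no gene could reach the minimum of 20 cells. Klf2 stood at 178 CPM in tumor lung and 1628 in normal lung, S1pr1 at 62.4 and 539, and 15 of 16 naive and homing genes were lower in tumor lung. This comparison uses the same tumor-lung cells as that with the tumor-library reference, so the genes named there are not counted here. The reference itself also differed between the libraries: of 6805 genes tested, 1321 (19.4%) were at least 1.5-fold higher in tumor lung and 453 (6.66%) lower. Of 16 naive and homing genes, 10 were lower in the tumor-lung reference and none higher (median log2 -0.68, against -1.67 in Ccr8 Tregs). Differences between tissues and between the runs of the 2 libraries cannot be told apart.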

How the data were processed

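The authors deposited raw UMI counts per gene and barcode, made with Cell Ranger 3.1.0 per the file headers and on mm10 per the submitters' processing notes. They also deposited receptor contigs with counts. The version of the receptor assembler is not given in the sources used here. Barcodes with at least 500 genes, under 10% mitochondrial UMIs, at most 2 productive alpha and at most 1 productive beta chain were kept. That receptor filter was the treatment of doublets and left out 533 and 602 cells, after 120 and 61 had failed the gene and mitochondrial filters. The libraries held 35633167 and 31697386 UMIs in 7788 and 7745 barcodes.

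UMIs were summed per class, scaled to CPM and compared as ratios in Python 3.11.15, without a test. Intervals at 95% are exact Poisson for CPM, exact conditional for ratios and Clopper-Pearson for shares, computed with scipy 1.17.1. A class at 0 was set to a floor of 3 counts summed over the class, and a ratio whose bound then said nothing was left untested. Foxp3, Ccr8, Il1rl1 and Cxcr3 were left out of the genes tested. Genes were named by rank, 15 per direction against the reference and 8 per direction in the other comparisons, with a minimum of 100 UMIs from 20 cells of the higher class. Antigen receptor segments, hemoglobins, ribosomal proteins, mitochondrial genes and genes that mark sex were not eligible, and preset genes and list examples were added. A few list genes are counted but not reported by name here. The members, gene lists and splits were chosen with earlier results of these data known. Coordinates come from RefSeq annotation of GRCm38.p6. The calculation of ratios was tested on simulated data.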

Additional observations from a re-analysis of the deposited data

Results flagged for a closer look

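For 8 of 245 scanned genes with a result in both libraries, the ratio of Ccr8 Tregs to the reference lay on opposite sides of 1 in the tumor and normal libraries with both counting intervals clear of 1. The scanned genes were those preset, listed, named by rank or used as markers, not all genes. Npm3 and Ly6a had been named by rank in Ccr8 Tregs of tumor against normal lung, and Tubb2a against the tumor-library reference. Their values on 1 side were thus part of that choice. The difference between the libraries itself was not tested, and each normal value rests on 16 cells. Higher in the tumor library and lower in the normal library were Ccl5 (2.47 and at most 0.427, on 0 UMIs in the normal Ccr8 Tregs), Ly6a (1.98 and 0.0897, on 1 UMI) and Npm3 (1.93 and 0.224, on 2 UMIs). Lower in the tumor library and higher in the normal library were Tubb2a (0.168 and 1.42), Gpr83 (0.377 and 3.30), Slamf6 (0.583 and 1.91), Sh2d1a (0.472 and 2.95) and Itgb1 (0.594 and 2.45).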

How the results depend on the processing

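The 30 genes named by rank were past 1.5-fold in 29 or 30 cases, in the main direction, under each of 14 other settings at which they were recomputed. The weakest single ratio, at a log2 size of 0.46, was found against reference cells with a Tnfrsf9 UMI, where the strongest of the 30 was 2.08. With a minimum of 100 UMIs, 453 of 3638 genes tested (12.5%) were higher and 159 (4.37%) lower in Ccr8 Tregs than in the reference. With 1 UMI in each class, 2322 of 10939 (21.2%) were higher and 1606 (14.7%) lower. The shares thus moved with the minimum, from 18.6% and 6.89% in the main setting. With cells carrying a Ccr7 UMI left out of both classes, 971 of 6709 genes tested (14.5%) were higher and 576 (8.59%) lower. The share of Foxp3 cells that were Ccr8 Tregs was 37.6% after thinning and 21.0% at 2 or more Ccr8 UMIs in the tumor library, and 3.88% at 2 or more in the normal library. With the rule applied after thinning, 623 genes were higher in tumor-lung than in normal-lung Ccr8 Tregs. That setting left 334 and 8 Ccr8 Tregs, chosen anew, and fewer counts. The 623 is therefore not on the same scale as the 1824 of the main setting. Directions turned for Tbx21 (log2 -0.20) and Mki67 (-0.13) after thinning, for Gzmb (-0.45), Tbx21 (-0.17) and the Th1 and cytotoxic list (-0.17) with the wider reference, and for Lag3 (-0.44) against reference cells with Tnfrsf9. For these turns the cause was not tested. The settings on Tnfrsf9, Ccr7 and shared barcodes were chosen after seeing the data. The share of expanded cells stayed higher in Ccr8 Tregs than in the reference under each clone definition and filter tried. By the beta chain alone it was 41.3% against 9.18%. The order of the other classes was not followed through the filters. No paired analysis was possible because each group has 1 sample.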
